A study of Drosophila melanogaster with 12 samples.

Results

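Transcript levels in testes lacking the testis TAF encoded by sa were compared with those in yw control testes, on 6 of the 12 arrays of the series: the 3 labelled sa and the 3 labelled yw. Members were all 18769 probe sets that are not array controls, and each was described by its log2 difference, sa minus yw, on the scale log2(intensity + 16). Every array held RNA from a pool of whole testes of Drosophila melanogaster males at age 1 day, with 3 biological replicates a genotype. The sa testes were sa1/sa2, a pair of alleles of the same gene. Testes of a second arrest genotype, aly2/aly5P, were set against sa, and the controls were y,w. All 12 arrays, those of aly and of a bam mutant included, entered the fit behind the p-values. They also decided which probe set stood for each gene. The labels do not give the y and w alleles of the mutants. Pools of whole testes also mean that a lower value can come from fewer cells of a type or from less RNA per cell, which cannot be told apart here.

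Spermatogonia of the fly testis divide, become primary spermatocytes, and during a long growth phase transcribe most of the genes that meiosis and sperm assembly will need. TFIID is the general complex that recruits RNA polymerase II to promoters, and its TBP-associated factors are called TAFs. Spermatocytes additionally make testis paralogs of several TAFs: sa is the paralog of Taf8, can of Taf5, nht of Taf4, mia of Taf6 and Taf12L of Taf12. Males without them arrest as primary spermatocytes, as do males without tMAC, the Myb-MuvB type complex of spermatocytes, of which aly is a subunit. Testis TAFs have also been reported to act against Polycomb repression at their target genes. The sa arrays therefore hold germ cells up to the arrest, whereas yw testes also hold meiotic cells, spermatids and sperm, so the loss of the factor and the stages that are missing cannot be told apart in any value below.

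To check the labels, the targeted gene was examined before the rest. Its transcript measured 112, 112 and 96.2 in the sa arrays, against 1518, 1179 and 1515 in the yw arrays. All 3 sa arrays lay far below all yw arrays, with a log2 difference of -3.52 (SE 0.10, limma adjusted p = 1.78e-09). The marker of primary spermatocytes betaTub85D, the testis beta-tubulin, was bright in both genotypes (3892 to 5177 in sa, 14833 to 16350.0 in yw), and the spermatocyte RNA-binding protein gene Rbp4 measured 7129 to 8942 in sa and 1257 to 1761 in yw.

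The median intensity lay between 54.4 and 57.2 in the sa arrays and between 52.9 and 54.0 in the yw arrays, and arrays of a genotype correlated across probe sets at 0.987 to 0.996 within sa and 0.982 to 0.994 within yw. Some arrays stood apart. The BioC hybridization control read 475 to 663 in replicate 3 of every genotype and 51.6 to 160 in replicates 1 and 2. The probe set for the 5′ part of the actin gene Act5C read 1643, 1788 and 420 in the sa arrays, with replicate 3 low, against 2108, 1888 and 2934 in the yw arrays. The one for its 3′ part read 8837, 8310 and 7301 in the sa arrays and 6799, 5746 and 6507 in the yw arrays. The 5′ signal of sa replicate 3 was thus low beside its 3′ signal, and RNA quality was not tested. The summed intensity of 11 accessory gland markers ran from 10528 to 23148 in sa and from 11778 to 69650 in yw, where replicate 2 was the high one. Hemocyte markers summed to 2447 to 2882 in sa against 1048 to 1326 in yw, with 4 of 7 called higher and none higher after ribosomal centring, and fat body markers to 579 to 984 in sa against 2016 to 3593 in yw, with 2 of 7 called lower, or 1 when sa replicate 2 or 3 or yw replicate 1 or 3 was left out. Cyst cell markers, for the somatic cells that enclose the germ cells, summed to 1010 to 1343 in sa and 855 to 1087 in yw. Their part in the results below was not tested.

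Of all probe sets, 5082 (27.1%) differed between sa and yw at a limma Benjamini-Hochberg adjusted p under 0.05 and at least 2-fold, which is what "called" means throughout. Of these, 3299 (17.6%) were higher and 1783 (9.5%) lower in sa, and in 5065 the 3 sa arrays did not overlap the 3 yw arrays. A call with 3 close arrays a genotype largely entails this, so it is no separate support. The share over all probe sets was not counted. The higher calls were more numerous and the lower ones larger: 44 probe sets were at least 8-fold higher, while 469 were at least 8-fold lower. Without sa replicate 3 there were 3341 higher and 1757 lower, without yw replicate 2 there were 3072 higher and 1868 lower, and with replicates 1 and 2 of every genotype alone 3460 higher and 1725 lower.

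The balance of higher and lower depends on what is held constant between arrays. As deposited, 64.9% of calls were higher, against 57.8% after quantile normalization and 3.22% when each array was centred on its ribosomal protein genes. That centring moved every difference down by 1.25, because ribosomal protein transcripts as a group read higher in sa: 34 of 41 were called higher and 3 lower, with a median log2 difference of 1.28. Calls lower in sa are therefore larger under that centring, while a call higher in sa holds under it only when the gene exceeded the ribosomal protein genes by at least 2-fold. By gene, with 1 probe set each, that centring called 369 of 11982 genes (3.08%) higher and 6698 (55.9%) lower. Counts after ribosomal centring are given below beside each group that was higher.

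**Figure D1:**
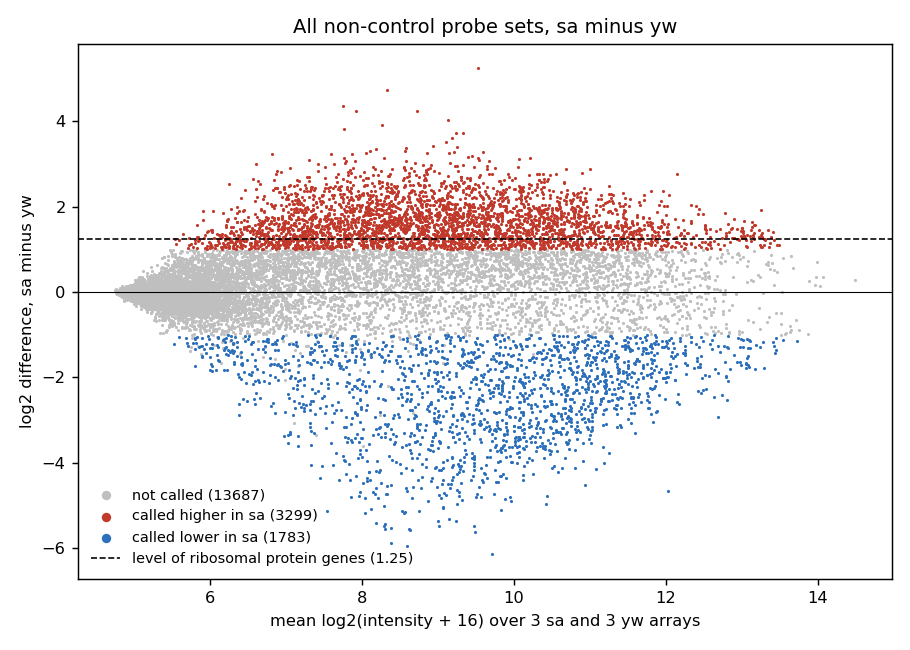
Each point is 1 of 18769 probe sets, with its mean log2(intensity + 16) over 3 sa and 3 yw arrays on the horizontal axis and its log2 difference, sa minus yw, on the vertical axis. The 3299 red points are called higher in sa and the 1783 blue ones lower; the blue cloud reaches farther from 0, and the dashed line marks the ribosomal protein genes at 1.25.

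Counted by gene, with the brightest probe set standing for each, 4406 of 11982 genes (36.8%) were called: 2861 (23.9%) higher and 1545 (12.9%) lower in sa. The median over all genes was 0.08. Counts for gene lists in sa minus yw, above and below, are to be read beside the 23.9% and 12.9% of all genes. Those after ribosomal centring are to be read beside 3.08% higher and 55.9% lower. Genes known only by a CG number made up 67% of the lower genes and 75.6% of the 418 that were at least 8-fold lower, against 43.5% of all genes and 32.1% of the higher ones.

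The lower genes were led by transcripts that were bright in yw and near the bottom of the scale in sa. CG10317, known here only by its CG number, measured 165, 63.7 and 52.2 in sa and 7892, 6355 and 7029.7 in yw, a log2 difference of -6.15 (SE 0.29, limma adjusted p = 2.60e-08). The cup gene t-cup, one of a set of genes transcribed after meiosis whose RNAs gather at one end of elongating spermatids, measured 60.0, 22.7 and 23.8 in sa against 3219, 2722 and 3174 in yw (-5.96). In both genes sa replicate 1 was the highest of the sa arrays and still far below every yw array. The other 10 of the 12 largest falls were CG33489, CG5024, CG18171, CG13473, CG42827, CG43072, the acylphosphatase gene Acyp, the V-ATPase subunit paralog Vha36-2, CG17217 and the sperm flagellar gene lobo, with log2 differences of -5.89 to -5.45. The lobo transcript read 41.2, 29.4 and 25.6 in sa and 2042, 1949 and 2212 in yw.

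Such near-complete loss was the exception among bright genes. Of 1158 genes that were called lower and averaged at least 1000 in yw, 32 averaged under 50 in sa and 84 under 100, whereas 356 still averaged at least 1000. The median of these genes was 553 in sa, 51.8 in aly and 3348 in yw. The genes were selected by their sa and yw levels. The aly arrays entered that selection only through the shared estimate of spread and the choice of probe set per gene. In aly, 563 of them averaged under 50. Tested directly, 817 of the 1158 were called higher in sa than in aly and 58 lower, against 11.9% higher and 7.87% lower among all genes. Those shares are not like for like, since all genes include those averaging under 1000 in yw.

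**Figure D2:**
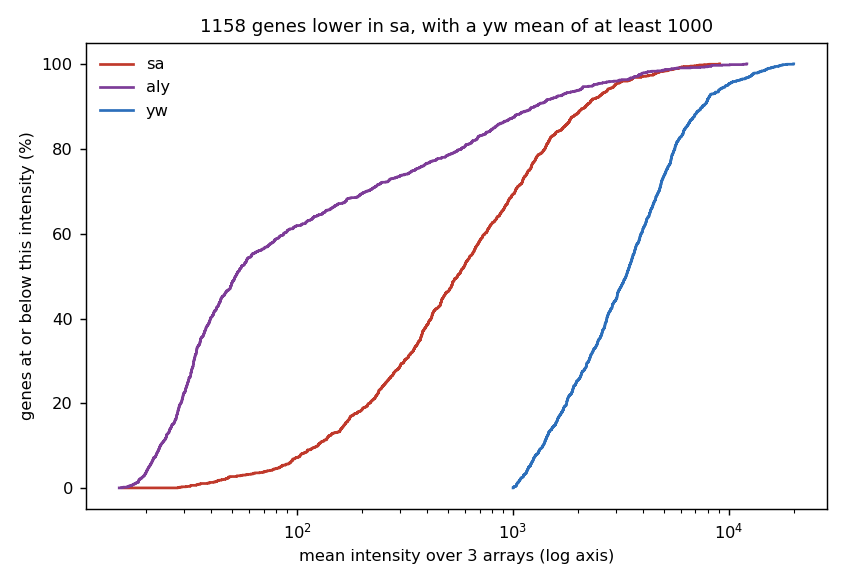
Share of the 1158 genes (vertical axis, percent) at or below a given mean intensity over 3 arrays (horizontal log axis), for sa, aly and yw. The sa curve lies between the others, with a median of 553 in sa, 51.8 in aly and 3348 in yw.

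The 12 genes with the largest rises were of mixed kinds. Their calls held after ribosomal centring, but genes chosen for differences this large pass the fold minimum even with 1.25 taken off. The neuropeptide gene CCHa1 measured 1159.6, 965 and 786 in sa against 26.9, 34.8 and 32.2 in yw (log2 difference 4.37, SE 0.15, limma adjusted p = 3.20e-09; 3.12 after ribosomal centring). Every sa array was far above every yw array. The yw values lie below the median intensity of their arrays, where the added 16 makes the difference smaller than the intensities alone would give. RpL22-like, the germline paralog of a ribosomal protein, measured 2172, 2138 and 1288 in sa, 5194, 4722 and 5035 in aly and 90.5, 63.9 and 91.4 in yw (4.24 against yw). CG5397 and the cytochrome P450 gene Cyp6a2 stood out because aly did not share their level. CG5397 was at 974, 950.2 and 1210.5 in sa, 39.9, 41.1 and 54.1 in aly and 39.9, 40.1 and 39.0 in yw, and Cyp6a2 at 693, 754 and 975 in sa, 50, 58.9 and 51.9 in aly and 38.7, 44.5 and 41.2 in yw. The direct contrast of sa with aly was 4.12 for CG5397 (limma adjusted p = 6.24e-10) and 3.55 for Cyp6a2 (limma adjusted p = 1.15e-09). The other 8 were the serpin gene Spn43Aa, the histone locus body gene mute, CG1024, Brd8 of the Tip60 chromatin complex, the kinetochore gene Spc25, the cleavage factor gene Cpsf160, pie and the DNA polymerase zeta gene PolZ1, with differences of 3.38 to 4.04.

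The other testis TAFs were not lost with sa. Of the 5 measured, 3 were called higher (1 after ribosomal centring) and sa itself lower. Taf12L rose by the widest margin of the 3, with 9665, 9422 and 8652 in sa, 4198, 3847 and 3994 in aly and 2095, 1616 and 2040.3 in yw. It was 4.82-fold higher in sa than in yw (log2 difference 2.27, SE 0.13, limma adjusted p = 8.27e-08; 1.02 after ribosomal centring) and higher than in aly (1.20). That rests on the brighter of its 2 probe sets, since the dimmer one differed by -0.44 and their mean by 0.91. The nht transcript measured 2854, 3317 and 2742 in sa and 832, 619.8 and 780.3 in yw (1.98), and mia 1059, 1194 and 1070.5 in sa and 390.0, 334 and 435 in yw (1.49). After ribosomal centring these were 0.73 and 0.24 and not called. For can, 955, 1079.5 and 739 in sa stood against 462, 468 and 655 in yw, a difference of 0.79 that missed the fold minimum. It passed with replicates 1 and 2 alone (1.10), and after ribosomal centring it turned to -0.46 and was not called.

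General TFIID subunits, used in all cells, had 7 of 12 called higher and none lower, with a median of 1.09, and 2 of 12 higher and 1 lower after ribosomal centring. Taf6, the general partner of mia, measured 1478, 1618 and 1975 in sa against 242, 174 and 197 in yw (log2 difference 2.95, SE 0.15, limma adjusted p = 4.60e-08). Taf5, the partner of can, measured 386, 447 and 709 in sa and 77.0, 61.4 and 52.3 in yw (2.70). Those 2 remained called after ribosomal centring, at 1.71 and 1.45. Taf8, the general partner of sa, was at 0.81 and not called.

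Among tMAC subunits 6 of 9 were called higher, but none of them after ribosomal centring, and topi was called lower in both. The zinc-finger subunit topi measured 536, 554 and 636 in sa, 8962, 8134 and 7692 in aly and 1309.6, 1130.5 and 1326 in yw. It was thus 2.15-fold lower in sa than in yw (log2 difference -1.10, SE 0.13, limma adjusted p = 3.10e-05) and lower than in aly by a far wider margin (-3.81, limma adjusted p = 2.71e-09). The subunits comr and tomb were higher than in yw by 1.84 and 1.94, while aly itself (107, 138 and 185 in sa, 87.1, 83.7 and 89.4 in yw) was at 0.60 and not called.

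**Figure D3:**
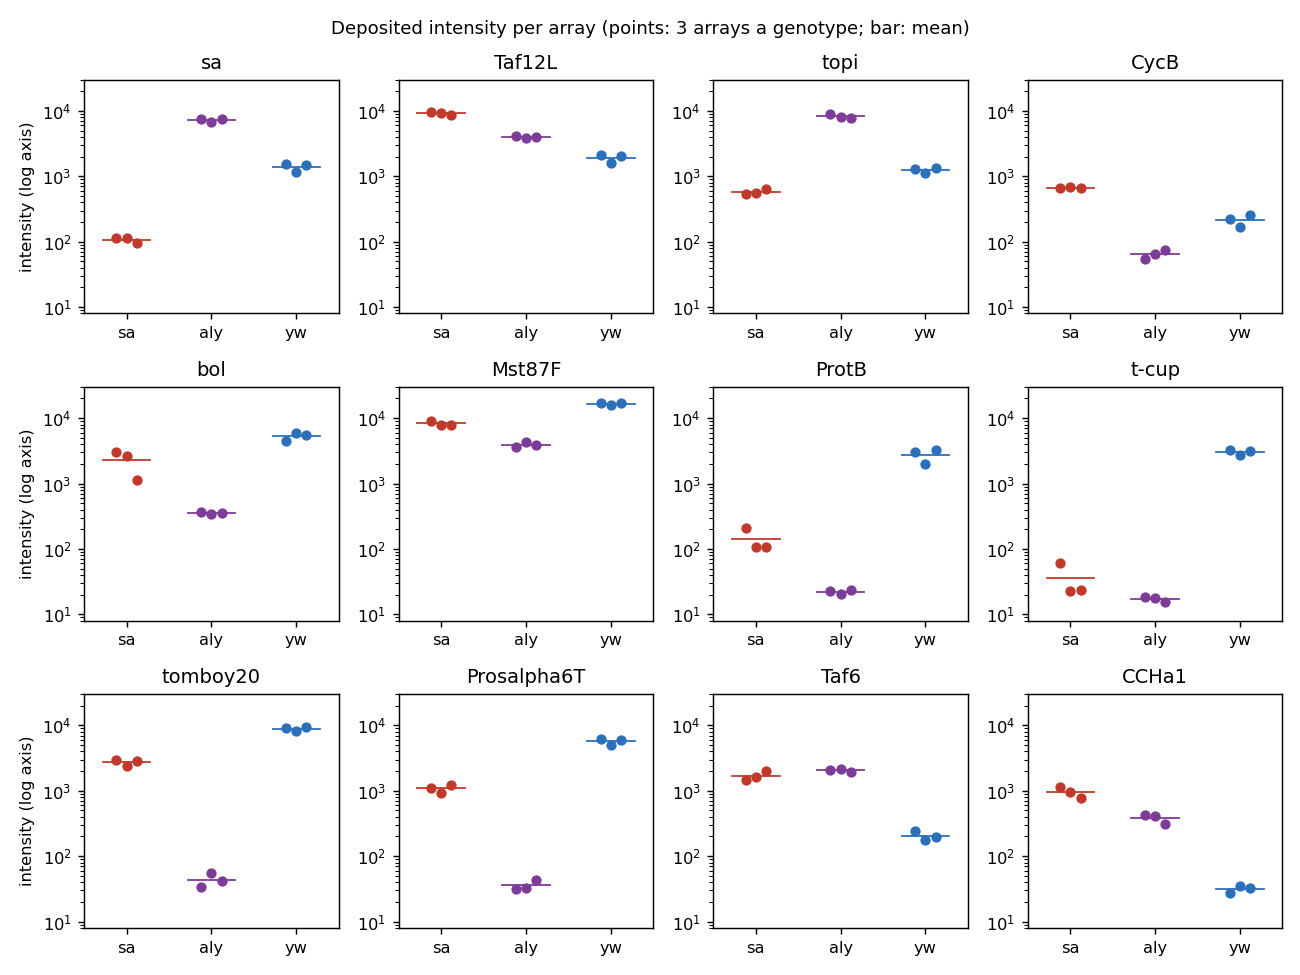
Deposited intensity (log axis) of 12 transcripts in the 3 arrays of sa, aly and yw, with each genotype's mean as a bar. The sa transcript is lowest in sa, topi is brightest in aly, and tomboy20 and Prosalpha6T keep intermediate levels in sa, above aly and below yw.

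Genes of the meiotic divisions did not move together: of 7, 2 were called higher and 1 lower, near the 23.9% and 12.9% of all genes. After ribosomal centring 1 was called higher and 5 lower, where 3.08% of all genes were called higher and 55.9% lower. CycB, the B-type cyclin, measured 663, 675 and 658 in sa, 55.1, 64.4 and 75.8 in aly and 219, 170.2 and 261 in yw. Its sa level exceeded both others, by 1.57 against yw (0.32 and not called after ribosomal centring) and by 3.08 against aly (limma adjusted p = 1.38e-08). The meiotic Cdc25 phosphatase gene twe overlapped between the genotypes, with 146, 163 and 154 in sa and 149.9, 93.8 and 155 in yw (0.22, limma adjusted p = 0.272). Against aly it was called higher in sa at 1.12, but not after quantile normalization (0.76), after median centring (0.94) or with 64 added before the log in place of 16 (0.78). The translational regulator bol, which meiotic entry requires, measured 3045, 2658 and 1138 in sa, 373, 343 and 360.2 in aly and 4409.5, 5936 and 5491 in yw. Its difference from yw was -1.31 (limma adjusted p = 0.00297), on 1 of 3 probe sets, and replicate 3 was the lowest sa array. Without that array the difference was -0.88 and no longer called.

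Lists of spermatid genes differed in how many members were called lower in sa. The individualization list had 1 of 6 lower and 2 higher, near the 12.9% and 23.9% of all genes. After ribosomal centring it had none higher and 3 lower, where 55.9% of all genes were called lower. Sperm chromatin proteins replace histones in the spermatid nucleus, and 5 of 5 were called lower with a median of -3.13. The protamine gene ProtB measured 208, 107 and 107 in sa, 22.6, 20.3 and 23.9 in aly and 3009, 2018 and 3311 in yw. That is a log2 difference of -4.19 from yw (SE 0.23, limma adjusted p = 7.85e-08) and of 1.97 from aly. ProtA, its near-identical neighbour, whose transcript may cross-hybridise, was at -3.23. The transition-protein-like gene Tpl94D measured 685, 634 and 486 in sa and 5140.4, 5240.5 and 5689.5 in yw (-3.13).

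The cup genes had 7 of 8 called lower, with a median of -2.27, and the comet genes, which share their RNA localisation in spermatids, 4 of 6 with a median of -1.38. The cup gene d-cup varied little among the sa arrays, at 244, 237 and 249 in sa, 31.4, 27.4 and 34.3 in aly and 2039, 1634 and 2010.3 in yw (-2.87). The sa arrays spread more widely for w-cup, at 1424, 539 and 231 in sa and 8264, 10612 and 9286 in yw. Its difference of -4.01 was -3.39 without sa replicate 3 and -4.66 without sa replicate 1. The comet gene sunz, at 203, 149 and 174 in sa against 1893, 2209 and 2575 in yw, was lower by the widest margin of its list (-3.55).

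Of the 7 members of the sperm-tail Mst family 3 were called lower and none higher, with a median of -1.0. Mst87F measured 9053, 7947 and 7879 in sa, 3601, 4278 and 3837 in aly and 17184, 15625 and 16803 in yw. The groups did not overlap, and its difference of -0.996 fell just short of the fold minimum and was not called (limma adjusted p = 5.32e-06). Without sa replicate 1 it was -1.06, and without yw replicate 2 it was -1.04, called in both. Mst84Dd was the lowest of the family at -2.06. The don juan gene dj, which encodes a sperm-tail and mitochondrial protein, measured 153, 125 and 62.4 in sa, 17.1, 17.0 and 16.9 in aly and 464, 569.8 and 618 in yw (-2.19), and Mst36Fa was at -4.82.

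Axoneme dyneins and tektins build the sperm flagellum, and 11 of 16 were called lower with a median of -1.36. The dynein light chain gene robl37BC measured 96.8, 83.9 and 105 in sa and 2984, 2006 and 2627 in yw (log2 difference -4.51, SE 0.13, limma adjusted p = 1.76e-09). The dynein heavy chain gene Dhc36C was lower in sa than in both others, with 179.6, 149 and 143 in sa, 494, 383 and 352 in aly and 863, 1350.0 and 976 in yw. Of 7 Y-linked fertility genes 6 were called lower, with a median of -1.86, and 4 with replicates 1 and 2 alone. The phosphatase gene Pp1-Y2 led them, at 236, 215 and 149 in sa and 1140.4, 1128 and 1400.3 in yw (-2.54).

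**Figure D4:**
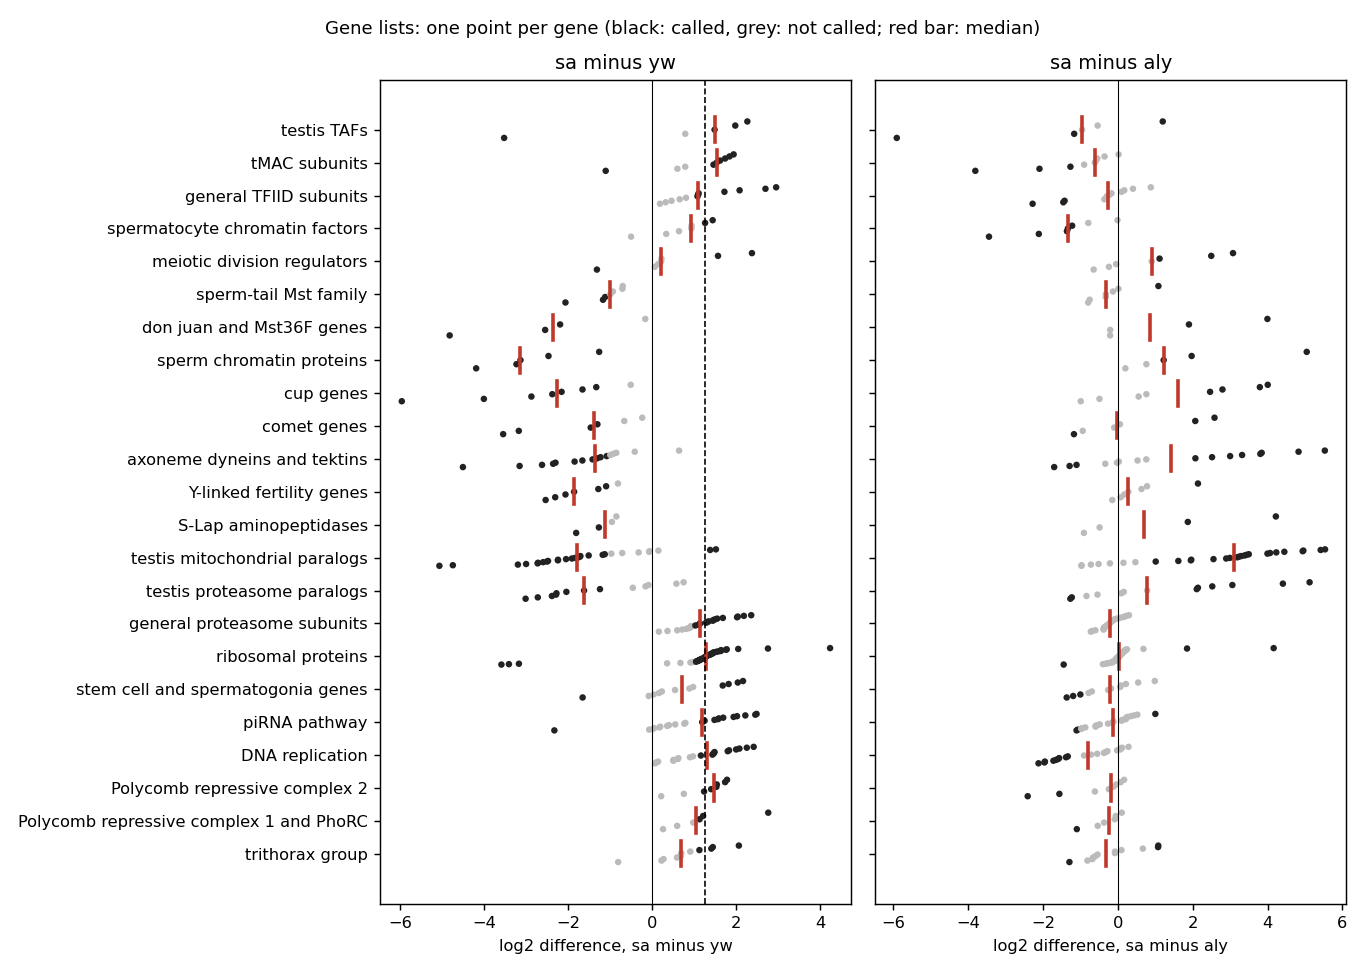
Log2 differences of every measured member of 23 gene lists, sa minus yw on the left and sa minus aly on the right; black points are called, grey ones not, and red bars are medians. On the left, the sperm chromatin, cup, comet and axoneme lists have medians below 0 while ribosomal and general lists gather near the dashed line at 1.25, and on the right testis mitochondrial paralogs lie above 0 with a median of 3.09.

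Testis paralogs of mitochondrial proteins had 20 of 28 called lower and 2 higher, with a median of -1.79, and none higher after ribosomal centring. COX6AL2, a paralog of a cytochrome c oxidase subunit, was at 124, 77.3 and 45.4 in sa, 25.0, 31.8 and 33.7 in aly and 2859, 2988 and 3458 in yw (-5.07). By contrast tomboy20, a paralog of the import receptor Tom20, kept 2998, 2360.1 and 2873 in sa, with 34.1, 55.5 and 41.6 in aly and 9171, 8317 and 9392 in yw. It was 3.27-fold lower than in yw (log2 difference -1.71, SE 0.13, limma adjusted p = 1.01e-06) and far higher than in aly (5.54, limma adjusted p = 2.41e-10). The spermatid mitofusin fzo, which fuses mitochondria after meiosis, measured 483, 432 and 364 in sa, 42.4, 30.1 and 25.3 in aly and 1009, 1249 and 1499.8 in yw (-1.51).

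Testis and general members of the same protein families could be set side by side in 17 of 18 pairs. In 15 of these the difference of the testis member lay below that of its general partner. Testis members were called lower in 8 pairs and higher in 3, with a median of -0.65, and general members were called higher in 8 and lower in none, with a median of 0.95. Ribosomal centring lowers each of these differences by 1.25. Under it only Taf5 and Taf6 of the general members stayed called higher, and only Taf12L of the testis members. One of these pairs is sa itself with Taf8, and the fall of sa is set by the genotype. Without it the testis member lay below in 14 of 16 pairs, with 7 testis members called lower and a median of -0.48. The gap between partners, unlike the sign of either, does not change with how arrays are centred. The proteasome alpha subunit gene Prosalpha6T measured 1112, 910.0 and 1233 in sa and 6173, 4944 and 6045 in yw (-2.39), while its general partner Prosalpha6 measured 5597, 6171 and 7218 in sa and 1529, 1235 and 1366 in yw (2.19, and 0.94 and not called after ribosomal centring). Prosalpha3T and Prosalpha3 were at -2.72 and 1.13. The exceptions were both testis TAFs, nht (1.98) with Taf4 (0.46), and Taf12L (2.27) with Taf12 (1.72). Taf4 was dim, averaging 52.8 in sa and 33.1 in yw. The Taf12L exception rests on its brighter probe set, since the mean of its probe sets, 0.91, lies below Taf12. ATPsynGL, a testis paralog of the ATP synthase gamma subunit, was at -0.32 and not called.

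**Figure D5:**
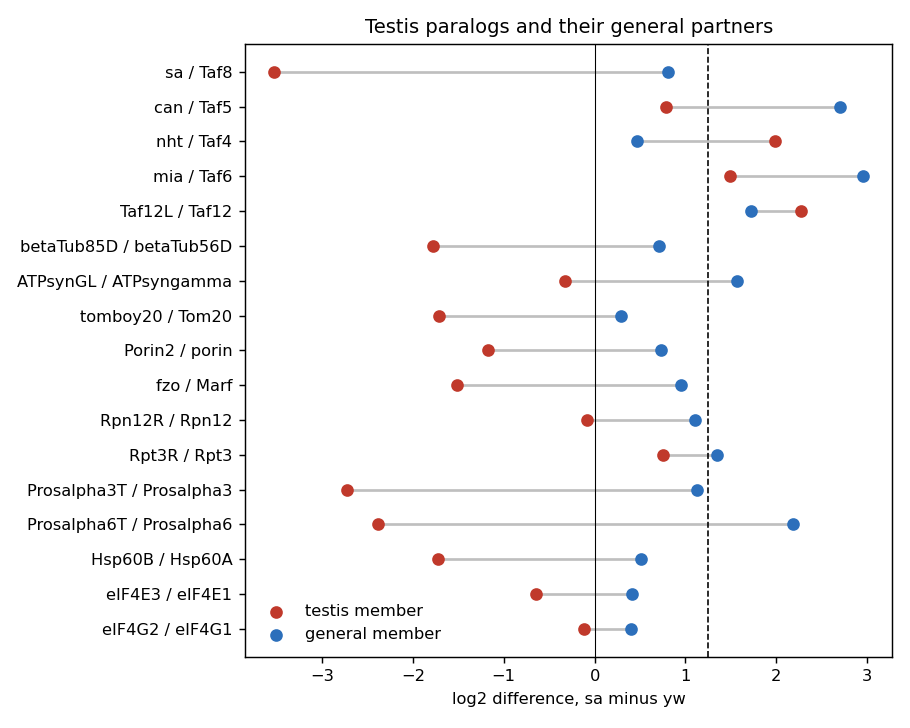
Log2 differences, sa minus yw, of the testis member (red) and the general member (blue) of 17 paralog pairs, joined by a line, with the ribosomal protein level of 1.25 dashed. Red lies left of blue in 15 pairs; nht and, by its brighter probe set, Taf12L are the exceptions.

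As whole lists, 8 of 13 testis proteasome paralogs were called lower and none higher (median -1.62), and 16 of 25 general proteasome subunits higher and none lower (median 1.14), of which 1 was higher and 1 lower after ribosomal centring. A few ribosomal protein paralogs also ran against their family. RpL10Aa measured 873, 729 and 996 in sa, 32.9, 37.9 and 28.1 in aly and 9478, 6343 and 8099.8 in yw (-3.17), and RpS28-like and RpS28a were at -3.59 and -3.41.

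Among genes used in earlier germ cells, those of DNA replication had 11 of 20 higher and none lower with a median of 1.30, and 2 higher and 3 lower after ribosomal centring. The replicative helicase gene Mcm5 measured 368, 432 and 603 in sa, 1739, 1954 and 1757 in aly and 73.8, 52.4 and 97.3 in yw (2.42 against yw, 1.17 and called after ribosomal centring, and -1.95 against aly). The sliding clamp gene PCNA read 2513, 2444 and 2574 in sa and 607, 452 and 491 in yw (2.26, and 1.01 and called after ribosomal centring). Stem cell and spermatogonia genes had 4 of 12 higher and 1 lower, and none higher and 5 lower after ribosomal centring. Both shares as deposited lie near those of all genes, 23.9% higher and 12.9% lower. After ribosomal centring 55.9% of all genes were called lower. Among piRNA pathway genes, which silence transposons, 12 of 23 were higher and 1 lower, and 2 higher and 6 lower after that centring. The exception was papi, a Tudor-domain gene of piRNA maturation, with 395, 397 and 391 in sa against 1814, 2034 and 2318 in yw (-2.33).

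Polycomb repressive complex 2, which methylates histone H3, had 6 of 8 genes called higher with a median of 1.47, and none higher and 1 lower after ribosomal centring. Su(z)12 measured 418, 409 and 365 in sa and 159, 94.8 and 134 in yw (1.53). The catalytic subunit gene E(z) was at 196, 222 and 230.1 in sa, 686, 667 and 652 in aly and 182, 171 and 198 in yw, so that sa and yw overlapped (0.22) and sa was lower than aly (-1.56, limma adjusted p = 4.52e-08). Of 6 genes of Polycomb repressive complex 1 and PhoRC 3 were called higher and 1 after ribosomal centring. That 1 was Sce, the RING ubiquitin ligase gene, with 2022, 2501 and 1860.3 in sa and 396, 189 and 346 in yw (2.77). The trithorax group had 4 of 12 higher, near the 23.9% of all genes, and none lower, and none higher and 2 lower after ribosomal centring.

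Setting sa against aly asked where the loss of a testis TAF differs from the loss of a tMAC subunit, since both arrest at the same cytological stage. Both mutants are compared with the same yw arrays, so their separate differences from yw are not independent, and the direct contrast is the test. It called 2708 probe sets (14.4%), 1612 (8.59%) higher and 1096 (5.84%) lower, and 2366 genes (19.7%), 1423 (11.9%) higher and 943 (7.87%) lower in sa. The higher ones were larger, with 445 genes at least 8-fold higher and 17 at least 8-fold lower. The median over all probe sets was -0.12, and -0.30 when each array was centred on its median.

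Among genes called against both yw and aly, the widest gaps were in genes that sa kept bright. CG9016 measured 7568, 5507 and 3829.9 in sa, 51.1, 60.2 and 49.8 in aly and 18469.5, 18547 and 18633 in yw, a difference of 6.29 from aly (limma adjusted p = 2.86e-09). CG30039, CG30487, CG12229, CG31870 and CG12617 followed with 5.81 to 6.16, and all 6 were lower in sa than in yw by 1.33 to 1.80. A difference from yw of at least 2-fold was a condition of this choice, so genes at the yw level in sa could not appear. On the other side were sa itself (-5.91), topi and CG14841. CG14841 measured 104, 121 and 151 in sa, 1934, 2287 and 2095 in aly and 1543, 1014 and 1401 in yw, so that its level was kept in aly and lost in sa. CG34460 was also lowest in sa but highest in yw, with 282, 291 and 324 in sa, 3049, 3424 and 3152 in aly and 4043, 3595 and 4146 in yw.

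By list, 21 of 28 testis mitochondrial paralogs were called higher in sa than in aly and none lower, with a median of 3.09, and 20 higher and 2 lower after median or ribosomal centring. Axoneme genes had 8 of 16 higher and 3 lower, cup genes 4 of 8 higher, sperm chromatin proteins 3 of 5 higher and testis proteasome paralogs 6 of 13 higher and 2 lower. The sperm-tail Mst family had 1 of 7 higher, near the 11.9% of all genes, with a median of -0.32. Spermatocyte chromatin factors ran the other way, with 5 of 7 lower in sa, as did DNA replication genes with 9 of 20 lower. The linker histone gene BigH1 illustrates the first of these, with 1574, 1822 and 2018 in sa, 4698, 4489 and 4475 in aly and 1116, 739.8 and 976 in yw, a difference of -1.33 from aly.

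Genes called in the same direction lay side by side more often than their share of all genes. In the order of 11899 measured genes along the RefSeq Release 6 assembly, the next gene was also lower for 353 of 1530 lower genes (23.1%), against 12.9% of all genes that were lower, and the next gene was also higher for 943 of 2857 higher genes (33%), against 23.9%. Neighbours can be tandem copies whose probe sets share sequence, and this was not tested. There were 25 runs of at least 4 adjacent lower genes and 70 of adjacent higher genes. How many would arise from the shares alone was not tested. The longest in either direction had 7 genes, and one of the lower ones ran through Pif2 and sowi with a median of -3.28. ProtA and ProtB lay in another with a median of -3.71, dj and djl in one with -2.37, and the Y-linked ARY, Ppr-Y, Pp1-Y2 and ORY formed one with -2.18. Pif2 and sowi are named here for their place in the run, after their values were seen.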

How the data were processed

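RNA from pools of whole testes was labelled and hybridised to 1 Affymetrix array per sample, with RMA in Bioconductor named in the series' design text. The submitters' processing notes list MAS5, RMA and limma, and their versions are not given in the sources used here. What the authors deposited is 1 linear intensity per probe set and array. The sources leave unsaid whether MAS5 or a back-transformed RMA made it, and with that the background correction. These deposited intensities were turned here into log2(intensity + 16), a scale on which dim genes change less than they did.

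Leaving out 183 control probe sets of 18952 left 18769. A single symbol belonged to 13647 of them, several to 402 and none to 4720. The RefSeq table of the Release 6 assembly held 13544 of the probe sets and changed 0 symbols. For 11982 genes the brightest probe set on average over the 12 arrays was used, which was a choice among several for 1094. Samples were grouped by the genotype and replicate in their titles. All 12 arrays, the bam mutant included, entered 1 limma fit (limma 3.58.1, R 4.3.3) over all probe sets, with a mean per genotype, eBayes and Benjamini-Hochberg adjustment. Their number, 3 a genotype, limits the precision, and p-values measure the spread between these pools.

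Genes named were those of the TAF, tMAC, meiotic and paralog sets, the 12 largest differences in each direction whose arrays did not overlap, up to 4 per list, and the 6 largest in each direction against aly. The members and lists were chosen with earlier results of these data known. On simulated data for sa minus yw over 18769 probe sets, 45% of 2-fold and 99% of 4-fold changes were called, with 1 false call. By adjusted p alone 85% of the 2-fold changes passed, since a change of exactly 2-fold often misses the fold minimum. The 100 changes of each size were put only into probe sets of above-median level, so dim ones were not covered. Far fewer probe sets were changed than were called in the data. Alternatives were other scalings, pseudocounts, filters, thresholds and variance models, probe-set summaries, fewer arrays, the replicate block and each array left out. Plots used matplotlib 3.10.9 in Python 3.11.15. No sequences were used.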

Additional observations from a re-analysis of the deposited data

Results flagged for a closer look

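The array's control probe set for 18S ribosomal RNA, which no comparison above uses, read 2545 in sa replicate 2 and 2187 in sa replicate 3. It read 63.2 in sa replicate 1, 559, 309 and 279 in the aly arrays and 83.8, 45.9 and 103 in the yw arrays. The 2 high sa arrays were singled out because they lay above every yw control array. The part of this signal in the results was not tested.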

How the results depend on the processing

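Only the scaling to ribosomal protein genes and the removal of the fold minimum moved a total by more than 1.5 times. Ribosomal centring gave 12924 called probe sets, 416 higher and 12508 lower in sa than in yw; without a fold minimum there were 10599, 5755 and 4844, and 9018 for sa minus aly. With ribosomal centring the sa minus yw difference turned to -1.03 for twe, -1.03 for E(z) and -0.12 for Prosalpha3. It also turned below 0, uncalled, for can, aly, Taf8, Taf4, Tom20 and BigH1 (-0.31 to -0.96). Some other named genes called higher as deposited were no longer called, since the centring lowers every difference by the same amount. Among them were nht, mia, comr, tomb, CycB, Prosalpha6, Hsp26, Hsp27 and Hsp68, and this list is not complete. Leaving out each array in turn gave 4940 to 5204 called, 3072 to 3445 higher and 1753 to 1868 lower, and 2471 to 3046 for sa minus aly. The deviations of same-numbered sa and yw arrays from their genotype means correlated at -0.27, 0.13 and -0.14. With 3 arrays a genotype these values do not settle whether replicate numbers mark arrays handled together, and BioC was high in replicate 3 of every genotype. With the replicate block 5078 probe sets were called, 3297 higher and 1781 lower. A term for replicate 3, chosen after seeing the data, gave 5087. Dim genes are limited by background, where 2-fold changes are understated.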

Other observations

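The small heat shock gene Hsp26 measured 19250.5, 18999.8 and 18661 in sa, 15939, 15354 and 15245 in aly and 5347, 4522 and 5001 in yw, a log2 difference of 1.94 from yw (limma adjusted p = 2.90e-08) that was 0.69 and not called after ribosomal centring. Hsp27 differed by 1.66 (0.41 after that centring), and Hsp68, an inducible Hsp70-family gene, by 1.64 (0.39 after it). Of 4 heat shock genes 3 were called higher as deposited. Among sperm leucyl aminopeptidases, which are abundant in the sperm's mitochondrial derivatives, 2 of 4 were called lower than in yw. S-Lap5 did not pass the fold minimum against yw but differed widely from aly, with 2409, 1896 and 2779 in sa, 103, 117 and 109 in aly and 4776, 3677 and 4284 in yw (4.22 against aly, limma adjusted p = 1.27e-09).

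Centriole genes had 3 of 7 called higher than in yw and none after ribosomal centring. Sas-4, a centriole assembly gene, measured 210.3, 265 and 349 in sa, 1125, 1056 and 1068 in aly and 97.7, 65.6 and 88.8 in yw, so that it was higher in sa than in yw (1.53, and 0.28 and not called after ribosomal centring) and lower in sa than in aly (-1.95, limma adjusted p = 5.86e-06). Its partner Sas-6 did not follow this order, with 1243, 1349.7 and 1495 in sa, 1315, 1212 and 1371 in aly and 485, 346 and 547 in yw. The spermatid translation regulator orb2 was lower in both mutants, with 1369, 1271 and 827 in sa, 1244, 1069 and 1317 in aly and 4659, 4343 and 5317 in yw (-2.06 for sa minus yw).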
